A study of Mus musculus with 3 samples.

Results

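Fast glutamate signalling was followed through 10 genes, taken by name, in mRNA counts of single cells from treated mouse medulloblastomas. They were the AMPA receptor genes Gria1, Gria2, Gria3 and Gria4, the NMDA receptor genes Grin1, Grin2a, Grin2b and Grin2c, and the vesicular glutamate transporter genes Slc17a6 and Slc17a7. All 10 were among the 19744 genes of each deposited count table. The 3 tumours, numbered 1 to 3, came from G-Smo mice, which carry hGFAP-Cre and SmoM2 on a C57BL/6 background. Cre driven by the human GFAP promoter is active in neural stem cells that give rise to glia as well as to cerebellar granule neuron progenitors, and SmoM2 is an activated form of the Hedgehog pathway protein Smoothened. All 3 tumours came from mice that had received POx-palbo, which is the CDK4 and CDK6 inhibitor palbociclib in a polyoxazoline nanoparticle. It was injected into the peritoneum in 5 daily doses of 25 mg/kg from postnatal day 10, and the tumours were taken on postnatal day 16. Because all tumours belong to 1 treated group, no value below sets treatment against control, and untreated tumours were not analysed here. The comparisons are between barcodes of the same tumours, and the tumour, not the cell, is the replicate.

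AMPA receptors are assembled from GluA subunits and carry most fast excitatory current in the brain, and the GluA2 subunit, encoded by Gria2, keeps calcium from passing through them. NMDA receptors need the GluN1 subunit of Grin1 together with GluN2 subunits. In the cerebellum Grin2b is the subunit gene of migrating and immature granule neurons, whereas Grin2a and Grin2c are used as these neurons mature. The transporters of Slc17a6 (VGLUT2) and Slc17a7 (VGLUT1) load glutamate into synaptic vesicles, and in granule neurons Slc17a6 is used early and Slc17a7 in mature parallel fibres. Neurod1 encodes a transcription factor that is switched on as granule neuron progenitors begin to differentiate, and Mki67 and Top2a are transcribed in dividing cells.

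The promoter windows of Gria2, Gria4 and Slc17a6 are shown, the AMPA receptor and transporter genes with the most counts. The windows are from RefSeq on the mouse build GRCm38.p6 and run from 250 bases before to 50 bases after the annotated start, 5′ to 3′ on the strand of the gene. In all, 6 of the 10 members matched a window, and Gria1, Gria3, Grin2a and Grin2b did not. Capitals mark a match to a searched motif.
Gria2, chr3:80802786-80803085, minus strand: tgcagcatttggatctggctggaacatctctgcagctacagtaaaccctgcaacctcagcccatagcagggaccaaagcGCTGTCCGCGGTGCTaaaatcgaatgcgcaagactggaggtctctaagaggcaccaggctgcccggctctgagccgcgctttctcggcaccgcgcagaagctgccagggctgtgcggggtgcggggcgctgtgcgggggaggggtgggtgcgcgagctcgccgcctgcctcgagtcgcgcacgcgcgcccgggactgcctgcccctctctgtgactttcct
Gria4, chr9:4796185-4796484, minus strand: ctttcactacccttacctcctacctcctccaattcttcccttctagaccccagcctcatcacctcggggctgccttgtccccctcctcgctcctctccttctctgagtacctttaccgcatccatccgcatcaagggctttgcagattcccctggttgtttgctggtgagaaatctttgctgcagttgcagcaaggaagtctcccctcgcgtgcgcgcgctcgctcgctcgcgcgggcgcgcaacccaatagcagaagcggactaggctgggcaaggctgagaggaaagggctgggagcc
Slc17a6, chr7:51621580-51621879, plus strand: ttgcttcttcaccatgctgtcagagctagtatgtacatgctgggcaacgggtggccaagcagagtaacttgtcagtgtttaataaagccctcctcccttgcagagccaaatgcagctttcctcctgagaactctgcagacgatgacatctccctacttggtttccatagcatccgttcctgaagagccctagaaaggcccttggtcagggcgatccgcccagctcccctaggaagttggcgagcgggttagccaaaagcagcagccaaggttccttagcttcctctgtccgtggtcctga
Slc17a6, second start, chr7:51624387-51624686, plus strand: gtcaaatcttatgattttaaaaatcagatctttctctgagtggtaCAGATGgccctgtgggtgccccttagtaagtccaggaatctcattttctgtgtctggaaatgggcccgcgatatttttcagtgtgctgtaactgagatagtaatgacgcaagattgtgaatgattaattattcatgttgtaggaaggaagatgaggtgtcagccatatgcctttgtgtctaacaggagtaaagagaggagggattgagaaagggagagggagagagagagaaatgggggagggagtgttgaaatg
The search covered 3 motifs on both strands. AGCACCNNGGACAGC is the core of the element bound by REST, a repressor of neuronal genes in other cell types. It was found in 10 of 32851 windows (0.0304%), among them that of Gria2, where the match lies on the opposite strand and begins 171 bases before the start. CAGATG, an E-box of the kind that NEUROD1 can bind, was in 17.2% of windows, and among the member windows it was found once, 205 bases before the second Slc17a6 start. CAGCTG, another E-box, was in 16.3% of all windows and in none of the 7 member windows. The motifs do not overlap each other in the letters shown, and the G and C content of the windows was 65.7% for Gria2, 59.7% for Gria4, and 53.7% and 43.0% for Slc17a6. A match is a description of the letters and was not tested for binding.

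Gria2 gave the most counts of the 10 members in every tumour. It had 795, 177 and 644 counts in tumours 1, 2 and 3, which were 691, 712 and 486 counts per 1000000 (CPM) of the tumour's total. Its level averaged 629.7 ± 124.7 CPM (SD, n = 3), and it made up 53.5% ± 6.15 of the counts of all 10 members. Gria2 ranked 136th, 108th and 266th among all genes of the tables. The exact 95% intervals for counting error, 644 to 741, 611 to 825 and 449 to 525 CPM, overlap for tumours 1 and 2 and lie lower in tumour 3. Each molecule was counted from its 3′ end, so CPM are not divided by gene length, and the order of genes below is an order of counts captured and not of transcript abundance.

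The other AMPA receptor genes were lower. Gria4, which encodes a subunit of early cerebellar neurons and Bergmann glia, had 151, 34 and 174 counts, or 131, 137 and 131 CPM, the most even level of the members (133 ± 3.14 CPM, SD, n = 3). Gria3 had 115, 23 and 65 counts, or 99.96, 92.5 and 49.1 CPM (80.5 ± 27.5 CPM). Gria1 had 46, 1 and 32 counts, or 40.0, 4.02 and 24.2 CPM (22.7 ± 18.0 CPM), so that tumour 2 stood below the other two. Together the 4 AMPA receptor genes reached 962, 945 and 691 CPM (866 ± 152 CPM).

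Among NMDA receptor genes, counts were nearly all of Grin2b. It had 99, 37 and 123 counts, or 86.1, 149 and 92.9 CPM (109 ± 34.4 CPM, SD, n = 3), with the highest level in tumour 2. Grin1, whose subunit every NMDA receptor needs, had only 10, 3 and 19 counts, or 8.69, 12.1 and 14.3 CPM (11.7 ± 2.84 CPM). The genes of mature granule neurons were at the edge of detection. Grin2c had 0, 1 and 7 counts, and Grin2a had 2 counts in tumour 1 and 0 in tumours 2 and 3. The exact 95% limit for a count of 0 was 3.21 CPM for Grin2c in tumour 1, and 14.8 and 2.79 CPM for Grin2a in tumours 2 and 3. The 4 NMDA receptor genes summed to 96.5, 165 and 113 CPM (125 ± 35.8 CPM).

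The transporter genes were as uneven. Slc17a6 had 229, 25 and 313 counts, or 199, 101 and 236 CPM (179 ± 70.2 CPM, SD, n = 3), and was lowest in tumour 2. Slc17a7 had 2, 0 and 1 counts, and the count of 0 in tumour 2 allows up to 14.8 CPM. In the order of mean levels, Gria2 lay above every other member in each of the 3 tumours. The ranges over tumours of the next 4, Slc17a6, Gria4, Grin2b and Gria3, overlapped from neighbour to neighbour. Gria1 lay below these 4 in each tumour and overlapped in range with Grin1, and Grin2c, Slc17a7 and Grin2a had at most 7 counts in any tumour.

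**Figure D1:**
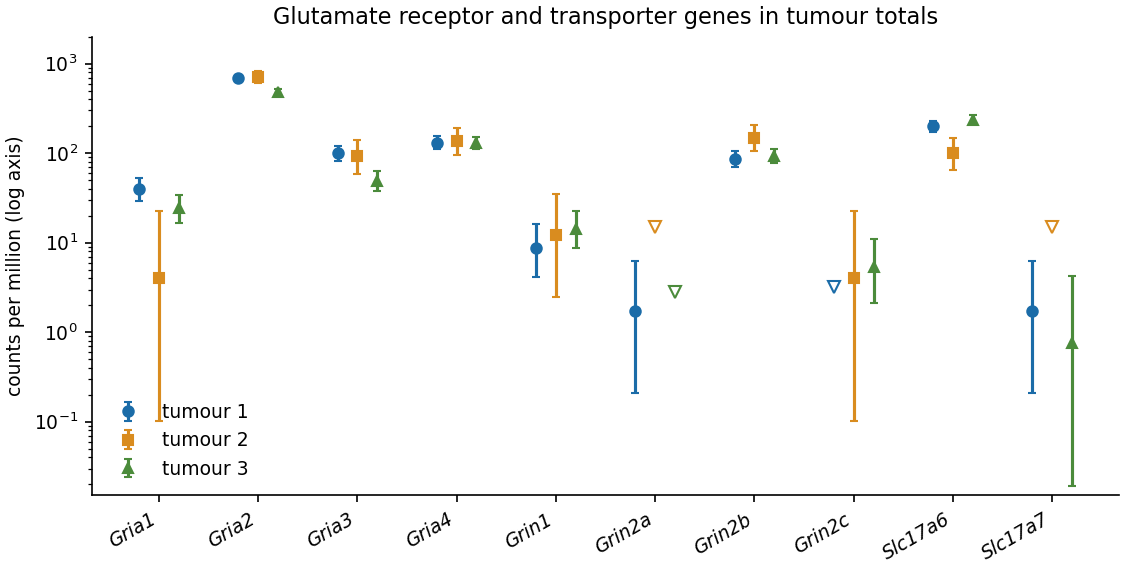
Level of each of the 10 members in the total counts of tumours 1, 2 and 3, in CPM on a log axis, with exact 95% Poisson intervals for counting error. Open triangles mark the upper limit where a tumour had 0 counts. Gria2 stands above every other member in each tumour, and Grin2a, Grin2c and Slc17a7 rest on at most 7 counts.

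Depth bears on every later value. The tumours held 8827, 2330 and 9802 barcodes with 1150463, 248617 and 1324350 counts, and the median barcode had 84, 85 and 105 counts. Sets were therefore made among the 1060, 148 and 1059 barcodes of at least 200 counts, which held 466239, 46315 and 398419 counts. Of 20959 barcodes, 3 were shared by tumours 1 and 2, 8 by tumours 1 and 3, and 3 by tumours 2 and 3. Tumour 2 stood apart, with the fewest barcodes and 11.4% mitochondrial counts against 3.97% and 5.61% in tumours 1 and 3. The tests were also run with each of the 3 tumours left out in turn. Mean levels and shares include tumour 2. In the tumour totals the progenitor marker list summed to 2511, 2112 and 2918 CPM and the granule neuron list to 1263, 1830 and 1254 CPM. The defining markers of inhibitory neurons were at or near 0, with 3, 1 and 3 counts in all for the 4 of 5 listed genes in the tables.

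In tumours 1 and 3 several members were higher in deeper barcodes. Gria2 in tumour 1 was at 327 CPM in barcodes of 50 to under 100 counts, 704 CPM in those from 100 to under 200 and 1086 CPM in those from 200 to under 500. In tumour 3 the same classes gave 306, 387 and 815 CPM, and in tumour 2 they gave 670, 807 and 753 CPM. Thus the difference by depth was seen in tumours 1 and 3 and not in tumour 2, whose counting intervals overlap. Gria3 was at 47.7, 90.1 and 130 CPM over these classes in tumour 1 and at 17.3, 43.2 and 89.2 CPM in tumour 3. In tumour 2 the Gria3 values were 50.9, 35.6 and 269 CPM. Slc17a6 was at 130, 168 and 339 CPM in tumour 1, with 225 CPM at 500 or more counts, and at 150, 245 and 299 CPM in tumour 3. In tumour 2 it was at 110, 107 and 53.8 CPM, the last on 2 counts. Gria4 was lowest in the shallowest class in tumour 1, with 95.4, 180 and 152 CPM, but not in tumours 2 and 3. It was at 203, 59.3 and 134 CPM in tumour 2 and at 144, 114 and 151 CPM in tumour 3. At 500 or more counts Gria4 was at 127, 0 and 135 CPM in tumours 1, 2 and 3. Gria2 was at 970, 219 and 739 CPM there, with 2 counts in tumour 2. Neurod1 was highest in tumour 1 in the shallowest class, at 2016 CPM, and was at 1822 and 1621 CPM in the next classes and 1148 CPM at 500 or more counts. In tumour 3 Neurod1 was at 2341, 2495 and 2409 CPM over the first 3 classes and at 1358 CPM at 500 or more counts, and in tumour 2 at 2712, 2218, 1721 and 1096 CPM over the 4 classes.

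**Figure D2:**
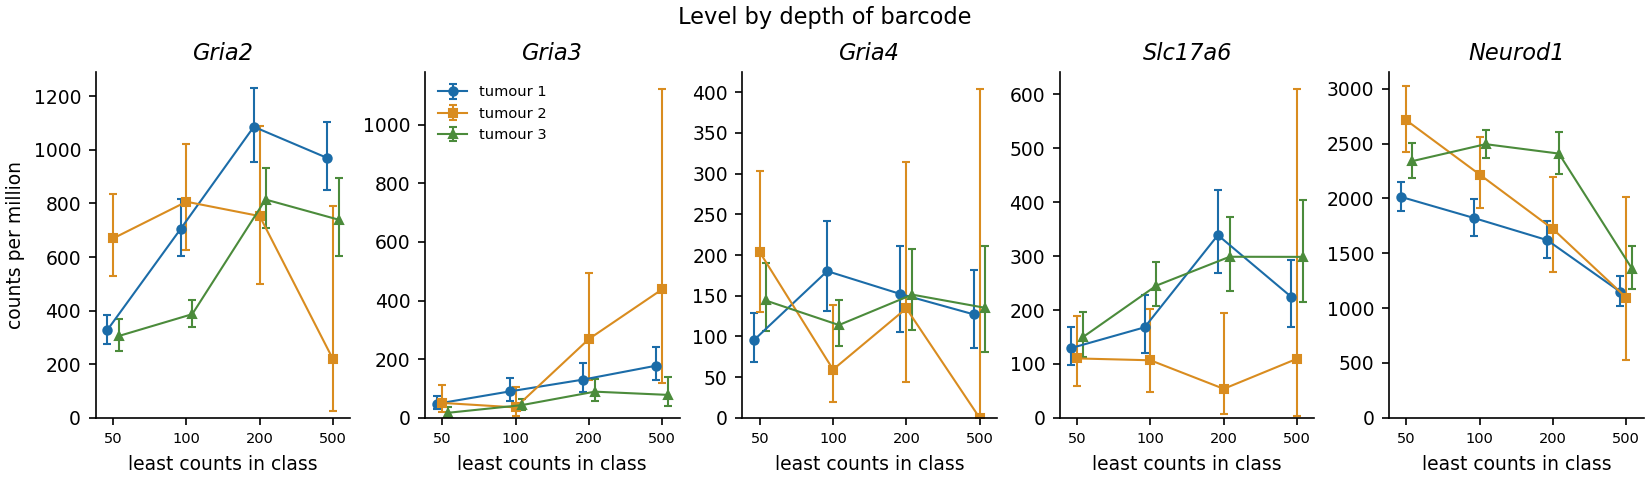
Level of Gria2, Gria3, Gria4, Slc17a6 and Neurod1 in CPM (vertical axis) by the counts in the barcode (horizontal axis, 4 classes named by their least count), for tumours 1, 2 and 3 with exact 95% Poisson intervals. Gria2, Gria3 and Slc17a6 are higher from 200 counts up than from 50 to under 100 counts in tumours 1 and 3, while Neurod1 is lower in the deepest class. In tumour 2 the deepest class holds 9 barcodes.

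In barcodes of at least 200 counts, any member was detected in 34.9% ± 8.15 (SD, n = 3), and in 23.5% ± 4.46 when each barcode was thinned to 200 counts. Most of these barcodes held a single member. In tumour 1, 353 barcodes held 1 member, 96 held 2 and 10 held 3, while 601 held none. In tumour 3 the numbers were 296, 59 and 8, with 1 barcode that held 4, and 695 held none, and in tumour 2 they were 35, 4 and 1, and 108 held none.

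Barcodes were then split by detection of Neurod1, the gene of the differentiation factor. Neurod1 averaged 1672 CPM in barcodes of at least 200 counts. At this depth a cell with the mRNA can give 0 counts. Neurod1-negative thus means not detected, and does not mean that the cell lacked the mRNA. Neurod1-positive barcodes numbered 330, 51 and 407 in tumours 1, 2 and 3 (31.1%, 34.5% and 38.4%), and Neurod1-negative barcodes 730, 97 and 652. Each tumour gave a summed count for either set, and 7310 genes with at least 20 counts over the 6 sums were tested with edgeR, with the tumour as a block. Of the 10 members, 6 reached that sum over both sets together, and Grin1, Grin2a, Grin2c and Slc17a7 did not. Of these 6, Slc17a6 and Grin2b rose in Neurod1-positive barcodes and none fell, where 0.848% of all genes tested were called in either direction, 0.643% higher and 0.205% lower. At an unadjusted p under 0.05 there were 5 members, against 7.69% of all genes. Over the 6 members the median log2 change was 0.75, against -0.01 over all genes tested.

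Slc17a6, the early vesicular transporter, had 79, 1 and 62 counts in Neurod1-positive barcodes of tumours 1, 2 and 3, against 52, 2 and 57 counts in Neurod1-negative barcodes. These were 519, 51.8 and 383 CPM in Neurod1-positive barcodes, against 166, 74.0 and 241 CPM in Neurod1-negative barcodes. Neurod1-positive barcodes were higher in tumours 1 and 3, and tumour 2 had 3 counts in all. The log2 change was 1.14 ± 0.25 (SE), with an adjusted p of 0.001525 by edgeR's quasi-likelihood test with Benjamini-Hochberg adjustment. Tumours 1 and 3 differed in size, with ratios of 3.14 (95% counting interval 2.18 to 4.54) and 1.59 (1.09 to 2.32).

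Grin2b, the NMDA receptor subunit gene of immature neurons, had 29, 0 and 28 counts in Neurod1-positive barcodes, against 18, 2 and 16 counts in Neurod1-negative barcodes. These were 191, 0 and 173 CPM in Neurod1-positive barcodes and 57.3, 74.0 and 67.6 CPM in Neurod1-negative barcodes. The 2 deep tumours were alike, with Neurod1-positive barcodes at 3.33 times (1.79 to 6.36) and 2.56 times (1.34 to 5.06) the level of Neurod1-negative barcodes. The log2 change was 1.42 ± 0.39 (SE; edgeR adjusted p = 0.03811). Grin1, which was too low for this test, had 8, 0 and 2 counts in Neurod1-positive barcodes, against 1, 0 and 0 in Neurod1-negative barcodes. Over the 3 tumours this is 10 against 1 counts, a ratio of 17.3 with a counting interval of 2.47 to 753. That interval covers counting error only, and most of the counts came from tumour 1. Grin1 was tested in 2 other settings and was not called. With every gene of at least 1 count its log2 change was 3.70 ± 1.60 (SE; edgeR adjusted p = 0.994). With a minimum of 100 counts per barcode it was 1.26 ± 0.78 (SE; edgeR adjusted p = 0.921).

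The AMPA receptor genes did not pass the test, and they did not all lie on the same side. Gria4 had 30, 3 and 34 counts in Neurod1-positive barcodes, against 35, 2 and 24 counts in Neurod1-negative barcodes, and its CPM were higher in 3 of 3 tumours (197, 156 and 210 CPM against 111, 74.0 and 101 CPM). Its log2 change was 0.93 ± 0.34 (SE; edgeR adjusted p = 0.2352). Gria2 had 1328, 415 and 1026 CPM in Neurod1-positive barcodes, against 882, 814 and 626 CPM in Neurod1-negative barcodes. It was thus higher with Neurod1 in tumours 1 and 3 and lower in tumour 2, where the Neurod1-positive sum had 8 counts, and its log2 change was 0.50 ± 0.18 (SE; edgeR adjusted p = 0.219). Gria3 lay on the other side, with 112, 104 and 61.8 CPM in Neurod1-positive barcodes and 175, 444 and 101 CPM in Neurod1-negative barcodes. It was lower with Neurod1 in 3 of 3 tumours, at a log2 change of -0.86 ± 0.37 (SE; edgeR adjusted p = 0.4745). Gria1 had 14, 1 and 1 counts in Neurod1-positive barcodes, against 16, 0 and 4 in Neurod1-negative barcodes (log2 change 0.57 ± 0.68, SE; edgeR adjusted p = 0.957). Of the 14 counts, 13 were in a single barcode that held 1 Neurod1 count beside 50 counts of the astrocyte and Bergmann glia list.

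The calls rest on tumours 1 and 3 together. Without tumour 1 the log2 change was 0.53 for Slc17a6 and 0.86 for Grin2b, without tumour 3 it was 1.46 and 1.24, and the edgeR adjusted p was between 0.9993 and 0.9997 in all 4 cases. Without tumour 2 both passed (8.36e-06 and 0.00103), and Gria2 passed as well, with a log2 change of 0.65 and an edgeR adjusted p of 3.33e-05. With barcodes thinned to 200 counts the log2 changes were 0.98 and 1.69, with edgeR adjusted p of 0.227 and 0.119, so neither call held. DESeq2 gave log2 changes of 1.01 for Slc17a6 and 1.13 for Grin2b (adjusted p = 0.99965 for both), and limma-voom gave 1.07 and 1.18 (adjusted p = 0.642 and 0.777).

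Other measures moved with the Neurod1 split, and their part in the result was not tested. The granule neuron marker list stood at 2453, 1503 and 1891 CPM in Neurod1-positive barcodes, against 942, 1036 and 1023 CPM in Neurod1-negative barcodes. The progenitor list stood at 2170, 1918 and 2874 CPM against 2887, 2479 and 3415 CPM. Mitochondrial counts were 4.94%, 7.75% and 5.37% in Neurod1-positive barcodes, against 5.98%, 13.5% and 6.93% in Neurod1-negative barcodes. Median depth was close, at 372.5, 253 and 316 counts against 345, 256 and 294 counts. Lists of other cell types differed most in tumour 2, where Gria2, Grin2b and Slc17a6 had lower CPM in Neurod1-positive barcodes. There the oligodendrocyte lineage list stood at 2436 CPM in Neurod1-positive against 259 CPM in Neurod1-negative barcodes, the myeloid list at 3058 against 851 CPM, and the endothelial and mural list at 1140 against 296 CPM. By the marker calls described below, tumour 2 had 1 oligodendrocyte lineage barcode, which was Neurod1-positive. Its myeloid barcodes numbered 5, of which 2 were Neurod1-positive, and its endothelial and mural barcodes 2, of which 1 was Neurod1-positive. In tumours 1 and 3 the myeloid list was lower with Neurod1, at 381 and 352 CPM against 541 and 850 CPM. The oligodendrocyte lineage list was at 671 and 321 CPM against 563 and 486 CPM, and the astrocyte and Bergmann glia list at 1295 and 785 CPM against 1569 and 799 CPM.

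**Figure D3:**
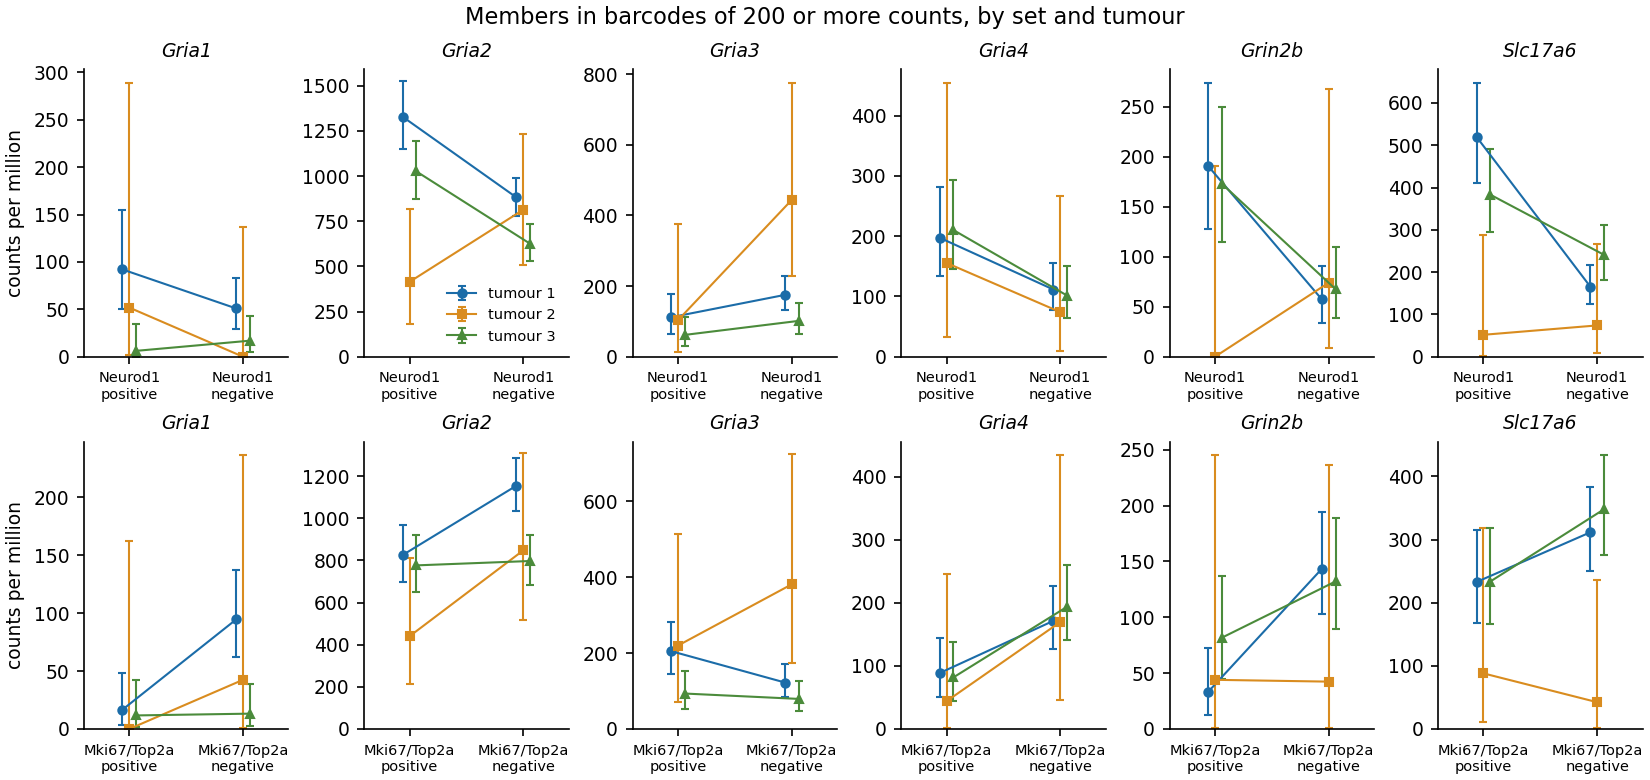
Level of the 6 tested members in CPM (vertical axes, each from 0) in barcodes of at least 200 counts. The upper row shows Neurod1-positive and Neurod1-negative barcodes and the lower row barcodes with and without Mki67 or Top2a, with a line for each tumour and exact 95% Poisson intervals. In tumours 1 and 3, Slc17a6 and Grin2b are higher in Neurod1-positive barcodes, Gria3 is lower there in all 3 tumours, and Gria4 is lower in Mki67- or Top2a-positive barcodes in all 3.

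The other split was by proliferation mRNA. Barcodes with Mki67 or Top2a numbered 343, 58 and 377 (32.4%, 39.2% and 35.6%), and those with neither 717, 90 and 682. None of the 6 tested members passed, where 2.26% of 7309 genes were called, 1.63% higher and 0.629% lower. An unadjusted p under 0.05 in edgeR was reached by 3 members, against 9.17% of all genes, and DESeq2 and limma-voom called no member either. The median log2 change of the 6 was -0.77, against -0.01 over all genes. Median depth differed between these sets, at 447, 274.5 and 359 counts with Mki67 or Top2a and 318, 246.5 and 284 counts without. The granule neuron list stood at 876, 1056 and 800 CPM with Mki67 or Top2a, against 1788, 1399 and 1810 CPM with neither. In tumour 1 the astrocyte and Bergmann glia list was at 948 against 1816 CPM and the oligodendrocyte lineage list at 316 against 777 CPM. In tumour 2 the oligodendrocyte lineage list was at 220 against 2077 CPM and the myeloid list at 2729 against 848 CPM. Only 1 and 5 barcodes of tumour 2 carried the oligodendrocyte lineage and myeloid calls described below. The part of depth and of these lists was not tested.

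Gria4 had 16, 1 and 14 counts in barcodes with Mki67 or Top2a, against 49, 4 and 44 counts in those with neither. Its CPM were lower with Mki67 or Top2a in 3 of 3 tumours, at 88.7, 44.0 and 81.7 CPM against 171, 170 and 194 CPM. The log2 change was -1.10 ± 0.38 (SE; edgeR adjusted p = 0.1152), and it passed when barcodes over 10% mitochondrial counts were left out (adjusted p = 0.038). Grin2b had 33.3, 44.0 and 81.7 CPM with Mki67 or Top2a, against 143, 42.4 and 132 CPM with neither (log2 change -1.21 ± 0.46, SE; edgeR adjusted p = 0.2111). Gria2 had 826, 440 and 776 CPM against 1155, 848 and 797 CPM, a difference of little size in tumour 3 (log2 change -0.30 ± 0.17, SE; edgeR adjusted p = 0.6494). Slc17a6 had 233, 88.0 and 234 CPM against 311, 42.4 and 348 CPM (log2 change -0.43 ± 0.26, SE; edgeR adjusted p = 0.7241). Gria3 was again on the other side in tumours 1 and 3, with 205, 220 and 93.4 CPM against 122, 381 and 79.3 CPM (log2 change 0.38 ± 0.36, SE; edgeR adjusted p = 0.8981). The direction of Gria3 turned when tumour 1 was left out (log2 change -0.16). Gria1 had 3, 0 and 2 counts with Mki67 or Top2a, against 27, 1 and 3 counts with neither (log2 change -1.84 ± 0.80, SE; edgeR adjusted p = 0.3658).

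Neurod1 and proliferation mRNA were linked, since 24.5%, 33.3% and 29.7% of Neurod1-positive barcodes held Mki67 or Top2a, against 35.9%, 42.3% and 39.3% of Neurod1-negative barcodes. Neurod1 sets were therefore also compared among barcodes with neither, of which 249, 34 and 286 were Neurod1-positive and 468, 56 and 396 Neurod1-negative. None of the 6 members passed, where 0.608% of 5428 genes were called, 0.405% higher and 0.203% lower, although 5 had an unadjusted p under 0.05 in edgeR, as did 7.5% of all genes. Log2 changes were close to those of the whole sets, with 1.29 ± 0.47 for Grin2b, 0.99 ± 0.39 for Gria4 and 0.89 ± 0.31 for Slc17a6 (SE), and the edgeR adjusted p were 0.3257, 0.4144 and 0.2875. Gria2 was at 0.54 ± 0.22 and Gria3 at -1.20 ± 0.54 (SE; edgeR adjusted p = 0.4568 and 0.5451). Gria1 was at 0.78 ± 0.73 (SE; edgeR adjusted p = 0.9271), with the same 13 counts of 1 barcode in its Neurod1-positive sum. Slc17a6 had 52, 1 and 41 counts in the Neurod1-positive barcodes of this comparison and 37, 0 and 38 in the Neurod1-negative ones. Without tumour 2, Gria2, Grin2b and Slc17a6 passed (edgeR adjusted p = 0.00846, 0.0452 and 0.0454).

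**Figure D4:**
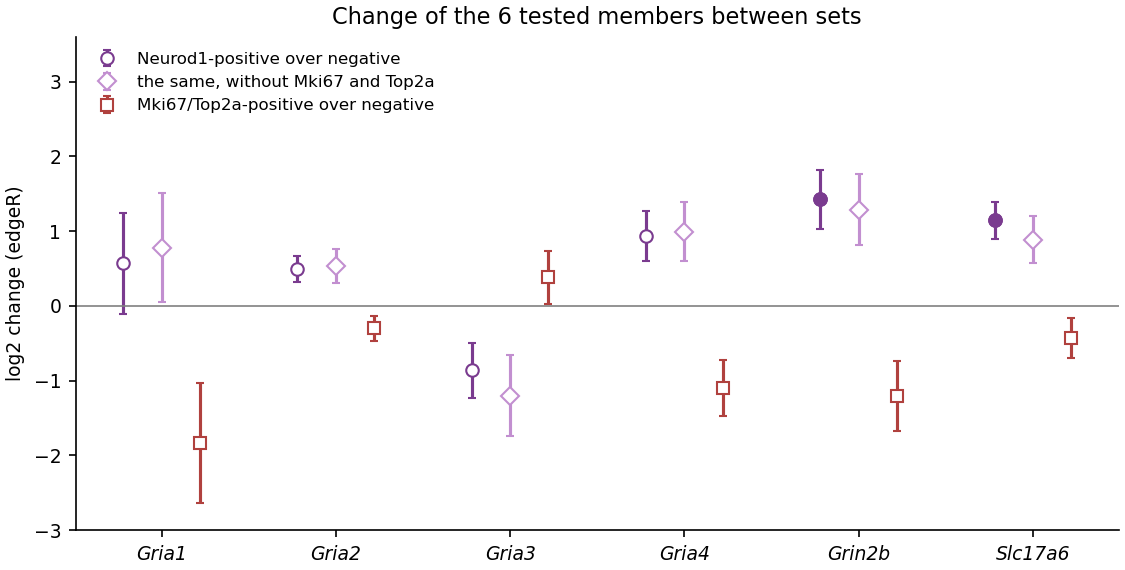
Log2 change of the 6 tested members (vertical axis, edgeR estimate with its standard error) in 3 comparisons of sets summed per tumour (n = 3 tumours). Filled symbols mark an adjusted p under 0.05, which Grin2b and Slc17a6 have in the Neurod1 comparison, at 1.42 and 1.14. Gria3 lies below 0 in both Neurod1 comparisons and above 0 in the proliferation comparison.

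Markers in barcodes that held a member were also compared with those in barcodes without it. In tumour 1, barcodes with Grin2b held 2.14 times (95% counting interval 1.58 to 2.85) the granule neuron list level of barcodes without it, and in tumour 3 1.83 times (1.28 to 2.54). For Slc17a6 the ratio was 1.62 (1.31 to 1.99) in tumour 1 and 1.27 (0.99 to 1.62) in tumour 3, and for Gria2 1.52 (1.30 to 1.78) and 1.17 (0.97 to 1.41). Gria4 was at 1.33 (0.99 to 1.76) and 1.24 (0.86 to 1.74), while for the astrocyte and Bergmann glia list its ratio was 2.92 (2.36 to 3.57) in tumour 1 and 0.64 (0.31 to 1.15) in tumour 3. The 9 barcodes with Grin1 in tumour 1 stood at 3.29 (1.87 to 5.39). Barcodes with Gria3 held less of the list than those without it, at 0.55 (0.36 to 0.81) in tumour 1 and 0.60 (0.33 to 1.02) in tumour 3. Their Mki67 and Top2a level was 1.84 times (1.52 to 2.20) that of barcodes without Gria3 in tumour 1, and 1.07 times (0.77 to 1.44) in tumour 3. With Grin2b that ratio was 0.26 (0.13 to 0.47) in tumour 1 and 0.85 (0.58 to 1.19) in tumour 3. With Gria2 it was 1.03 (0.90 to 1.16), 0.68 (0.35 to 1.22) and 1.24 (1.08 to 1.43) in tumours 1, 2 and 3. For Gria2 the oligodendrocyte lineage list ratio was 1.42 (1.11 to 1.81), 0.21 (0.03 to 0.81) and 1.46 (1.04 to 2.03) in these tumours. The astrocyte and Bergmann glia list ratio of Gria2 was 1.24 (1.06 to 1.45) in tumour 1 and 1.06 (0.81 to 1.36) in tumour 3. In tumour 2, where 25 barcodes held Gria2 and 10 held Gria3, the granule neuron list ratio was 2.15 (1.13 to 3.92) for Gria2 and 0.86 (0.22 to 2.32) for Gria3. The Mki67 and Top2a ratio of Gria3 was 0.94 (0.42 to 1.84) there, and its oligodendrocyte lineage list ratio was 32.4 (17.2 to 64.4), on 40 counts of the list. The oligodendrocyte lineage call described below marked 1 barcode of tumour 2, and that barcode held Gria3. The interval covers counting error and not differences between barcodes. Barcodes with a member were deeper than those without, for example with a median of 507 against 348 counts for Gria3 in tumour 1, and the part of depth was not tested.

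Markers of other cell types were then called per barcode, with at least 3 counts of at least 2 genes of a list. Over the 3 tumours this marked 35 barcodes as astrocyte and Bergmann glia, 19 as oligodendrocyte lineage, 31 as myeloid, 8 as endothelial and mural and 4 as erythroid, some of them under more than 1 list, while 2175 were called for none. Lists for inhibitory neurons, Purkinje cells and unipolar brush cells marked 0 barcodes. Myeloid barcodes, taken as cells that should lack these genes, held 0 counts of each of the 6 tested members at a median depth of 546 counts. A count of 0 of 31 barcodes allows a share of up to 11.2% by the exact binomial interval. Of the same 31 barcodes, 7 held Neurod1 mRNA, against 766 of the 2175 called for no list, whose median depth was 309 counts. Detection of Neurod1 thus took in barcodes of another cell type.

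Gria1 differed from the other members in where its counts lay. Of its 36 counts in barcodes of at least 200 counts, 25 were in 5 barcodes of the astrocyte and Bergmann glia call, all in tumour 1, at 826 CPM (534 to 1219). Barcodes called for no list had 11 counts of Gria1, at 13.1 CPM (6.55 to 23.5). Of the 25 counts in the astrocyte and Bergmann glia call, 13 were in a single barcode of tumour 1 with 1629 counts, beside 50 counts of that list. Another barcode with 602 counts held 6 of the 25, beside 30 counts of the list. Neither of these barcodes had a count of the granule neuron or progenitor lists. Bergmann glia are known to use AMPA receptors built from the subunits of Gria1 and Gria4. The call marked 30 barcodes in tumour 1, 0 in tumour 2 and 5 in tumour 3. In barcodes of at least 200 counts Gria1 had 30, 1 and 5 counts in these tumours, against 46, 1 and 32 in all barcodes. The 5 called barcodes of tumour 3 held 0 counts of Gria1. With so few barcodes, no test was made between calls.

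Gria2 was found in barcodes called as glia and in those called for no list, and had 0 counts in the 31 myeloid barcodes (up to 155 CPM) and the 8 endothelial and mural barcodes (up to 261 CPM). Of the 4 erythroid barcodes, 1 held Gria2, with 5 counts. A barcode of tumour 3 with 3415 counts held 5 Gria2 counts beside 12 of Neurod1, 11 of the progenitor list and 5 of the erythroid list. It also held 4 counts of each glial list, and doublets were not called. Gria2 was in 12 of 35 astrocyte and Bergmann glia barcodes (34.3%, 19.1 to 52.2), 8 of 19 oligodendrocyte lineage barcodes (42.1%, 20.3 to 66.5) and 532 of 2175 barcodes called for none (24.5%, 22.7 to 26.3). Median depth of these calls differed, at 693, 512 and 309 counts, and its part in the shares was not tested. The levels of Gria2 were 760 CPM (482 to 1140), 1086 CPM (593 to 1821) and 944 CPM (879 to 1012), with overlapping intervals. Of the 823 Gria2 counts, 791 were in barcodes called for no list. Those barcodes also held most counts of all genes. In tumours 1, 2 and 3 they had 424353, 38663 and 375170 of the 466239, 46315 and 398419 counts. When all barcodes called for another cell type were left out, the Neurod1 comparison gave a log2 change of 1.14 for Slc17a6 and 1.43 for Grin2b (edgeR adjusted p = 0.00154 and 0.0383).

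**Figure D5:**
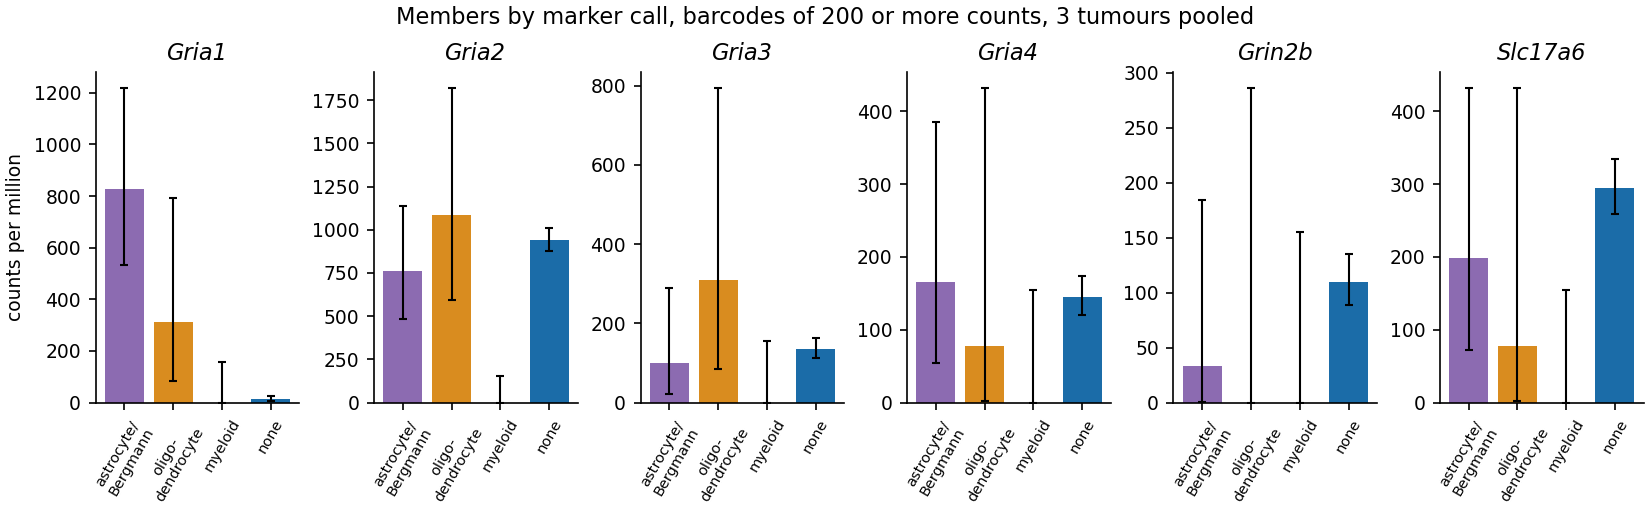
Level of the 6 tested members in CPM (bars from 0, vertical axes differ) by marker call among barcodes of at least 200 counts, pooled over 3 tumours, with exact 95% Poisson intervals. The calls are astrocyte and Bergmann glia (35 barcodes), oligodendrocyte lineage (19), myeloid (31) and none (2175). Gria1 is at 826 CPM in the astrocyte and Bergmann glia call and 13.1 CPM in barcodes called for none, and the myeloid call has 0 counts of each member.

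The genes whose level varied most like that of Gria2 and Slc17a6 were found over 8 sums, which are the 4 sets by Neurod1 and proliferation mRNA in tumours 1 and 3. Pearson's r was taken over tumour-centred log2 CPM of 3812 genes, and the sums share their libraries and depth. For Gria2 the closest were Stmn4 (r = 0.98), Rcbtb2 (0.97), Nfib (0.96), Snap25 (0.94) and Celf5 (0.94). Stmn4 encodes a microtubule regulator of neurons, Nfib a transcription factor of granule neuron differentiation, and Snap25 a protein of the vesicle fusion complex. For Slc17a6 the closest were Lhx1 (r = 0.99), Nnat (0.97), Elavl3 (0.97), Cnpy1 (0.97) and Chd7 (0.96), of which Lhx1 encodes a LIM homeobox factor, Elavl3 a neuronal RNA-binding protein and Chd7 a chromatin remodeller. Among the members, Gria2 was nearest to Grin2b (r = 0.91, place 22 of 3812) and farthest from Gria3 (r = -0.78, place 3670). Slc17a6 and Grin2b had r = 0.82. These are descriptions over sums of the same sets that were compared above.

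Around the members, 84 further genes of glutamate synapses were counted in 6 lists, of which 2 were not in the tables. Of the 45 tested in the Neurod1 comparison, 2 rose, 0 fell and 43 did not pass, with a median log2 change of 0.42 and 14 genes at an unadjusted p under 0.05. Over all genes tested, 0.643% were called higher, 0.205% were called lower and 7.69% had an unadjusted p under 0.05. Grik2, a kainate receptor subunit gene, had 59, 6 and 43 counts in Neurod1-positive barcodes, against 64, 8 and 21 counts in Neurod1-negative barcodes. It was higher in 3 of 3 tumours, with a log2 change of 1.06 ± 0.27 (SE; edgeR adjusted p = 0.01713). Grik2 also passed among barcodes without Mki67 and Top2a, at 1.39 (edgeR adjusted p = 0.01835). There 37 genes of the lists were tested, 2 rose and 0 fell, where 0.608% of all genes were called. In the Neurod1 comparison Grik2 was not called without tumour 1 or without tumour 3, when no gene of the whole table was.

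The vesicle release list had 17 tested genes, of which 9 had an unadjusted p under 0.05, against 7.69% of all genes. Of the 17, 1 rose and 16 did not pass, and the median log2 change was 0.85. Cplx2, which encodes a complexin of the fusion machinery, was at -0.47 ± 0.22 (SE; edgeR adjusted p = 0.5298). It was the only tested gene of the list below 0. Snap25 was at 0.76 ± 0.23 and Syt11, a synaptotagmin gene, at 0.33 ± 0.21 (SE; edgeR adjusted p = 0.0958 and 0.8147). The 12 tested postsynaptic scaffold genes had a median of -0.12 and none passed, with 3 at an unadjusted p under 0.05. The 8 tested genes of glutamate uptake and metabolism had a median of -0.19 and none passed, with 0 at an unadjusted p under 0.05. Slc1a2, a glial glutamate uptake transporter gene with the most counts of all lists, was at -0.15 ± 0.19 (SE; edgeR adjusted p = 0.9583). In these lists DESeq2 and limma-voom made no call, since they called 0 genes of the whole table in this comparison.

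In the proliferation comparison 2.26% of all genes tested were called and 9.17% had an unadjusted p under 0.05. Of the lists, 45 genes were tested there and none passed, with 6 at an unadjusted p under 0.05. Their median log2 change was -0.27. Among those with the most counts were Slc1a2 (-0.37 ± 0.19), Cplx2 (0.39 ± 0.21), Syt11 (-0.27 ± 0.21) and Snap25 (-0.39 ± 0.24) (log2 change ± SE; edgeR adjusted p between 0.5616 and 0.8655).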

How the data were processed

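Drop-seq counts mRNA molecules by unique molecular identifier. Per the labels' protocols, papain was used for dissociation and libraries were made from 3′ ends. The tables deposited by the authors hold raw counts of each gene in each barcode, with no recorded normalisation. STAR and Cell Ranger, with no versions or roles, and the build GRCh38 are named in the submitters' processing notes, although 18566 of 19744 symbols (94.03%) match mouse gene names, so the tables' genes were used by symbol only. How the 3 tumours were replicated is not given beyond their numbers. With the tumour as a block, p-values set the difference between sets against its variation over these 3 tumours. They do not measure the spread of levels between tumours.

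Barcodes of at least 200 counts were divided by at least 1 count of Neurod1, and of Mki67 or Top2a. A count of 0 does not show that a cell lacked these mRNAs. Doublets were not called. Counts were summed per tumour and set. Genes with at least 20 counts over the sums were tested with edgeR 4.0.16 (R 4.3.3; TMM scaling, quasi-likelihood test, tumour as a block, Benjamini-Hochberg over all genes, threshold 0.05). The genes that define a set were left out of its test. The tumour is a block because both sums come from the same tumour. limma 3.58.1 (voom) and DESeq2 1.42.0 were alternatives, and the edgeR fits were run on simulated counts before use. Ratios within a tumour, CPM and shares carry exact 95% Poisson or binomial intervals, which cover counting error only. Python 3.11.15, numpy 2.4.6, scipy 1.17.1 and pandas 2.3.3 were used. Named are the 10 members, called genes of the lists and, where fewer than 5 were called, those with the most counts up to 5, and the 5 genes most like each of the 2 members with the most counts. Some genes that this rule names are not reported here. The members and lists were chosen with earlier results of these data known.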

Additional observations from a re-analysis of the deposited data

How the results depend on the processing

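Scaling by RLE size factors or by library totals kept the calls of Slc17a6 and Grin2b and moved no member's call. For the Neurod1 comparison edgeR called 62 genes, and 0 with DESeq2 and 0 with limma-voom (91 and 461 genes at an unadjusted p under 0.05, against 562), 39 with every gene of at least 1 count, 35 with at least 50 counts, 27 with thinned barcodes, and 31 and 11 with minimums of 100 and 500 counts per barcode. Leaving out a tumour gave 0 to 209 calls, with 0 without tumour 1 or 3 (52 and 92 genes at an unadjusted p under 0.05). Proliferation calls numbered 165, and 34 with DESeq2, 31 with limma-voom, 105 with at least 50 counts, 35 with thinned barcodes, 57 with a minimum of 500 counts, and 9 to 192 with a tumour left out (9 without tumour 1 and 21 without tumour 3). In the Neurod1 comparison without Mki67 and Top2a, 33 genes were called, and 0 with DESeq2 (71 at an unadjusted p under 0.05), 4 with limma-voom, 14 with at least 1 count, 57 with at least 50 counts, 12 with thinned barcodes, 17 with a minimum of 100 counts, and 0 to 105 with a tumour left out (2 without tumour 1, 0 without tumour 3). With no replicate block, that is without pairing the sums of a tumour, the 3 comparisons gave 2, 64 and 0 calls, the last with 206 genes at an unadjusted p under 0.05, and Slc17a6 and Grin2b did not pass (edgeR adjusted p = 0.985 and 0.860). The cause of these differences was not tested.

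Over all settings Slc17a6 stayed positive and was called in 9 of 16 (log2 change 0.53 to 1.46), and Grin2b in 6 of 16 (0.86 to 1.69). Grin2b alone lost its call at the 1- and 50-count filters (adjusted p = 0.182 and 0.107) and without barcodes over 10% mitochondrial counts (0.0513). Gria3 in the proliferation comparison ran from -0.16 to 0.84 over all settings, and with a tumour left out from -0.16 without tumour 1 to 0.58 without tumour 2. The summed level of the members was 1170 CPM in the totals and 1475 CPM in barcodes of at least 200 counts. The share of barcodes with any member, thinned and unthinned, was 28.1% and 41.1% with Neurod1, 22.0% and 31.6% without, 17.2% and 32.7% with Mki67 or Top2a, 25.8% and 36.3% with neither, 30.3% and 43.3% with Neurod1 alone, 24.2% and 31.8% with none of these 3 mRNAs, and 23.5% and 34.9% over all barcodes. Depth limits the rest: 4 members had under 20 counts in deep barcodes, and tumour 2 held 55 of the 1466 member counts there.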
